A study of Mus musculus with 6 samples.

Results

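The 2 mature arms of the miR-21a hairpin, mmu-miR-21a-5p and mmu-miR-21a-3p (below without the species prefix), were measured in 6 Hepa1-6 tumours. They were chosen by name among the 1881 mouse miRNAs on the array, and both passed the detection filter that left 388 miRNAs for testing. In GLE tumours miR-21a-5p averaged 1.31 times its level in model tumours, but neither arm passed the test across all miRNAs. Every GLE tumour was above every model tumour for miR-21a-5p, at the narrowest by 0.020 (log2). Such a separation was found for 18 of the 388 tested miRNAs (4.64%). Under quantile normalisation and without scaling between arrays, the groups overlapped for miR-21a-5p. The signal of the 5p arm was 282 to 463 times that of the 3p arm with the main processing, a factor that depends on which probes and which background are used.

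All 6 mice were C57BL/6 and carried a tumour grown from Hepa1-6, a mouse hepatoma line, after 0.1 ml of cells was put into the right flank. In the GLE group (n = 3), mice were given GLE, a treatment whose name the labels leave unexplained, with a daily total that came to 0.023 g for a mouse of 10 g. In the model group (n = 3), mice were given 0.2 ml of 0.9% NaCl once a day over 28 days. The labels record 28 d as the age of every sample and give neither sex nor how long GLE was given. All tumours come from 1 transplanted cell line and no tumour-free tissue was analysed here, so the levels describe tumours under either treatment and not a change with cancer. The hepatocyte miRNA miR-122-5p was detected in 1 GLE tumour and 1 model tumour only, and miR-122-3p and miR-802-5p in none of the 6. Other miRNAs of the hepatocyte list were detected: miR-192-5p, miR-148a-3p and miR-101a-3p on all 6 arrays and miR-194-5p on 5. Each tumour was hybridised with Cy3 label to its own one-colour array, and all arrays lay on 1 slide, with the GLE tumours in its first row and the model tumours in the next. Slide row and group cannot be told apart.

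A miRNA hairpin is cut by Drosha and then Dicer into a short duplex, and one strand, the guide, is usually retained by Argonaute while the other is degraded. The miR-21 gene is induced through AP-1 and STAT3, and its guide strand, the 5p arm, represses messenger RNAs of tumour suppressors such as PDCD4, for which it is known as an oncogenic miRNA in liver cancer and many other tumours. The 5p arm is also abundant in immune cells and activated fibroblasts. SMAD proteins that bind the CAGAC motif in the stem of the precursor have been described to promote its cutting by Drosha.

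The sequences below show what the array could tell apart: both arms, their hairpin, and the mouse miRNAs closest to the 5p arm. They are from RefSeq on GRCm38.p6, in which both arms had an entry, and the capitals in the mature sequences mark the seed, bases 2 to 8, which pairs with target messenger RNAs.
miR-21a-5p: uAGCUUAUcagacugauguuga
miR-21a-3p: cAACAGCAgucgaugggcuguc
miR-21c: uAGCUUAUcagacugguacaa
miR-21b: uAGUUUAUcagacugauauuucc
In the hairpin, the capitals mark the 5p arm at bases 18 to 39 and the 3p arm at bases 56 to 77.
Mir21a hairpin: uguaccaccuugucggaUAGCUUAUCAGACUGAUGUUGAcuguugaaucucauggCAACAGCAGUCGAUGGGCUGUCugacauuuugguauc
The hairpin of 92 bases lies at chr11:86584067-86584158 on the minus strand of GRCm38.p6, with the 5p arm at chr11:86584120-86584141 and the 3p arm at chr11:86584082-86584103. This places it inside the span of the protein-coding gene Vmp1 (chr11:86583858-86683836). The arms share no seed. Of 1679 mature mouse miRNAs in the RefSeq table, 1 other, miR-21c, has the 5p seed and none has the 3p seed. The complement of the 22-nt probe for miR-590-5p on the array also has the 7 seed bases of the 5p arm. Set against the 5p arm, with positions counted from 1 at the 5′ end and the base of the 5p arm given first, miR-21c has the same first 15 bases and then differs by A16G, G18A, U19C, U20A and G21A. The seed of miR-21b carries C4U, and further differences from the 5p arm lie at G18A, G21U and A22C. The letters CAGAC, searched for in mature sequences read 5′ to 3′, start at base 9 of the 5p arm and are absent from the 3p arm. They occur in 28 of the 1679 mature sequences (1.67%).

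Agilent miRNA arrays carry several probes of different length for a miRNA, each complementary to its 3′ end. The probes are shown because their length sets which bases were read. Capitals mark the bases added beyond the shortest probe of the same arm.
5p probe, 20 nt: tcaacatcagtctgataagC
5p probe, 19 nt: tcaacatcagtctgataag
3p probe, 15 nt: gacagcccatcgACT
3p probe, 14 nt: gacagcccatcgAC
3p probe, 13 nt: gacagcccatcgA
3p probe, 12 nt: gacagcccatcg
The 5p probes pair with bases 3 to 22 and 4 to 22 of the 5p arm, and the longest 3p probe pairs with bases 8 to 22 of the 3p arm. The longer 5p probe gave 30746 to 43684 intensity units in GLE tumours and 22764 to 34972 in model tumours, which ranked it at place 3 or 4 among the 4415 probes on each array. The shorter 5p probe, with 1 base pair less, gave 6056 to 9194 units in GLE tumours and 4706 to 7083 in model tumours. Loss of that pair therefore went with a signal lower by a factor of 4.75 to 5.08 in GLE tumours and 4.50 to 4.94 in model tumours, a ratio that overlapped between the groups.

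The 3p probes formed a ladder in the same sense. The 15-nt probe gave 37.1 to 60.8 units in GLE tumours and 39.9 to 51.8 in model tumours. With 14 nt, the signal was 23.4 to 38.2 units in GLE tumours and 27.4 to 36.8 in model tumours. The 13-nt probe stayed at 2.27 to 5.14 units in GLE tumours and 3.08 to 5.87 in model tumours, and the 12-nt probe was near 0, so these shorter probes were detected on 0 of 6 arrays and did not enter the level of the 3p arm. The probes of both arms rested on 15 spots each for 5p and 7 or 8 for 3p, of which 9 of 360 over all arrays were flagged as outliers and left out, and no spot was saturated.

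The close relatives were not detected on any array, and their probes show how far the 5p arm reaches probes with an imperfect match. Capitals mark the longest stretch that each relative's probe shares with the complement of the 5p arm.
miR-21c probe, 19 nt: ttgtacCAGTCTGATAAGC
miR-21b probe, 21 nt: ggaaatATCAGTCTGATAAac
Both share 13 bases. The miR-21c probe gave 7.55 to 9.94 intensity units in GLE tumours and 5.90 to 11.98 in model tumours, which is 0.0222% to 0.0343% of the longer 5p probe's signal on the same array. For miR-21b the signal was 4.11 to 6.59 units in GLE tumours and 2.37 to 6.32 in model tumours, or 0.0104% to 0.0204% of that of the 5p probe. The other relative, miR-590-5p, was also detected on 0 of 6 arrays. The bright 5p probes thus stood beside near-background signal at probes with 13 matching bases.

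**Figure D1:**
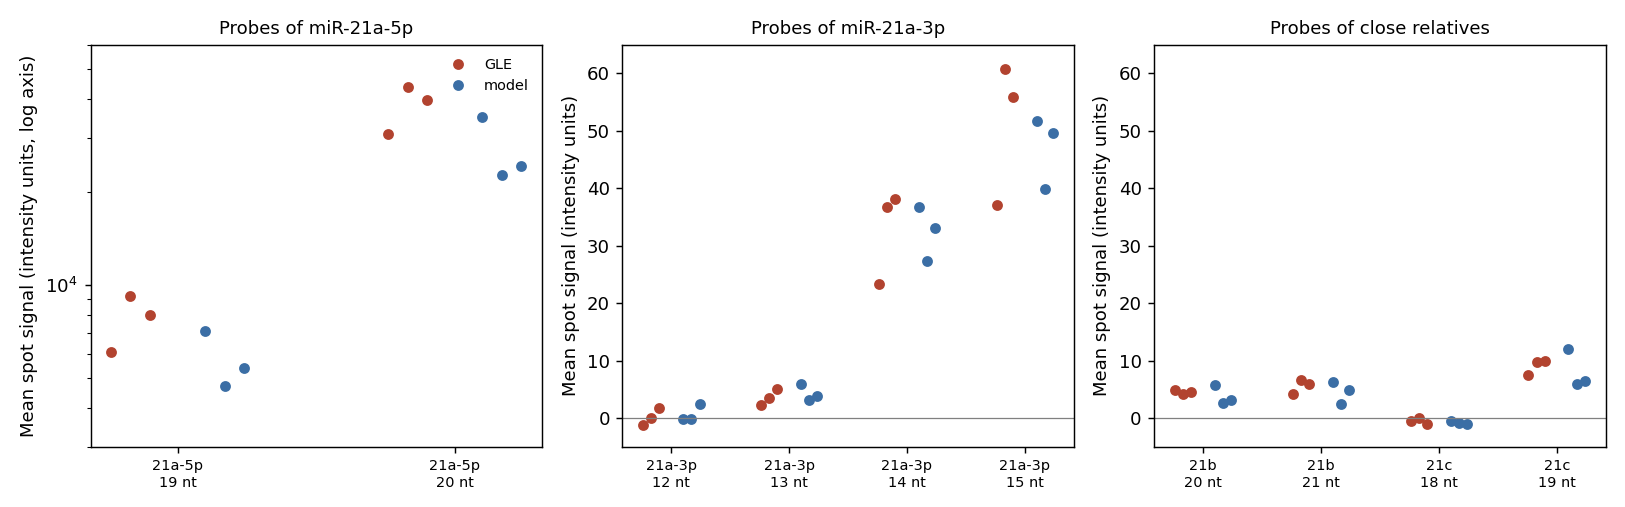
Mean spot signal in intensity units of each probe on each array, for miR-21a-5p (log axis), miR-21a-3p and the close relatives miR-21b and miR-21c (linear axes), with GLE arrays (red) left of model arrays (blue) and probes named by length in nucleotides. The 20-nt probe of miR-21a-5p reached 22764 to 43684 units, whereas the 15-nt probe of miR-21a-3p reached 37.1 to 60.8 and the probes of the relatives at most 11.98.

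Levels are given as the signal divided by the array's 75th percentile, averaged over the probes used, on a log2 scale; a value of 0 is the 75th percentile of the probes detected on all arrays. In GLE tumours the 5p level was 6.07, 5.78 and 6.21, and in model tumours it was 5.65, 5.49 and 5.76 (log2, replicates 1 to 3). All 3 GLE tumours were above all 3 model tumours, though the lowest GLE tumour, replicate 2, exceeded the highest model tumour, replicate 3, by 0.020 (log2). Such a full separation with GLE higher was found for 18 of the 388 tested miRNAs (4.64%), and separation in either direction for 26 (6.7%). The means were 6.02 ± 0.22 in GLE tumours and 5.63 ± 0.14 in model tumours (log2 mean and SD, n = 3 each). The difference of 0.39 ± 0.18 (log2, SE) had a 95% interval from −0.048 to 0.82, which is a ratio of 1.31 with an interval from 0.968 to 1.77. By limma with Benjamini-Hochberg adjustment over 388 miRNAs the adjusted p was 0.937 (unadjusted p = 0.0733), and 0 miRNAs (0%) were called. At an unadjusted p under 0.05, 6 miRNAs (1.55%) were found with the main processing, and neither arm was among them. With other processing of all arrays, the unadjusted limma p of the 5p arm ran from 0.0252 (normexp background) to 0.368 (quantile normalisation). Its limma adjusted p with normexp background was 0.999. The interval leaves room for no difference and for a level up to 1.77 times higher in GLE tumours. Under quantile normalisation the difference was 0.13 and without scaling 0.46 (log2), and in both the groups overlapped. Without GLE replicate 2 it was 0.51 (limma adjusted p = 0.126), and 2 other miRNAs passed the threshold.

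The 3p arm, the strand usually degraded, gave levels of −2.78, −2.94 and −2.38 in GLE tumours and −2.84, −2.80 and −2.38 in model tumours (log2, replicates 1 to 3). Its groups overlapped throughout: the 2 highest values, both replicate 3, came from one tumour of each group. The means were −2.70 ± 0.29 in GLE tumours and −2.67 ± 0.26 in model tumours (log2 mean and SD, n = 3 each). Their difference was −0.028 ± 0.22 (log2, SE), with a 95% interval from −0.55 to 0.50, or a ratio of 0.980 with an interval from 0.681 to 1.41. The adjusted p by limma with Benjamini-Hochberg adjustment was 0.973. The sign of this difference turned under other processing, with a value of 0.047 without scaling and 0.025 when the brightest probe alone was used.

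The probes of an arm were also fitted one by one. In a limma fit over all 720 probes that entered a tested miRNA, the 20-nt probe of the 5p arm differed by 0.41 ± 0.19 and the 19-nt probe by 0.36 ± 0.19 (GLE minus model, log2, SE). The 15-nt probe of the 3p arm differed by 0.025 ± 0.22 and the 14-nt probe by −0.082 ± 0.23 (log2, SE). For the 5p arm, spots of one probe on one array varied less than tumours: their coefficient of variation was 1.37% to 3.96% for the 5p probes, whereas the 5p level varied between tumours by 14.7% in the GLE group and 9.57% in the model group. For the dimmer 3p arm the spot variation was nearer to that of tumours: the spots varied by 4.13% to 15.1% and the tumours by 20.7% in the GLE group and 18.7% in the model group. These are unlike measures, as the first is for single spots and the second for levels averaged over spots and probes.

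**Figure D2:**
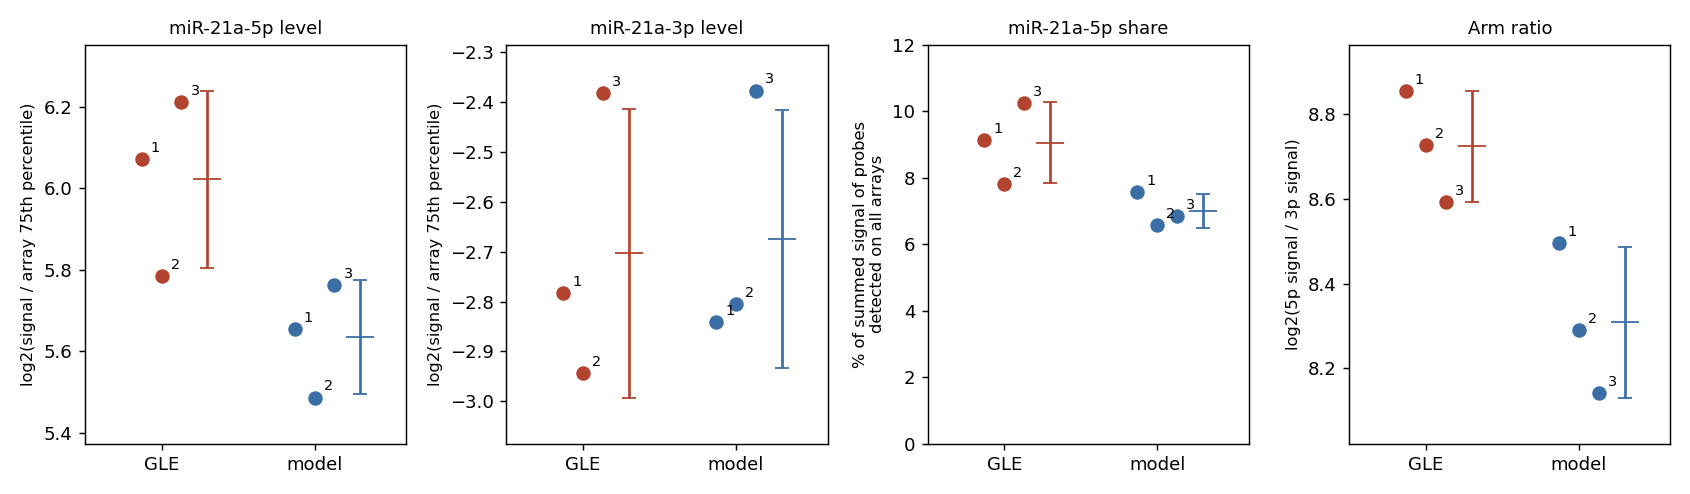
Values of single tumours (numbered points, by replicate) with group mean and SD (bars, n = 3 each) for GLE (red) and model (blue): level of miR-21a-5p and of miR-21a-3p (log2 of signal over the array's 75th percentile), share of miR-21a-5p in the summed signal (%), and arm ratio (log2 of 5p over 3p signal). GLE tumours lie above model tumours in the 5p level, the 5p share and the arm ratio, which rest on the same 5p signal. The groups overlap in the 3p level.

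The signal of a probe depends on how well it binds as well as on the number of molecules, so ranks, shares and ratios between miRNAs describe signal and not molecules. The 5p arm had rank 3 by level on all 6 arrays. Of the total signal over probes detected throughout, it held 9.13%, 7.80% and 10.2% in GLE tumours and 7.57%, 6.56% and 6.85% in model tumours. The lowest GLE share was above the highest model share. How often the shares of other miRNAs separated was not counted. The separations in level, in share and in the arm ratio below all rest on the same 5p signal. GLE tumours averaged 9.05 ± 1.22% and model tumours 6.99 ± 0.515% (SD, n = 3 each), a difference of 2.06 percentage points (exact permutation p = 0.1, two-sided, the smallest that 3 against 3 allows; 0.15 after Benjamini-Hochberg adjustment over 3 such tests). When the 10 brightest other miRNAs were taken out of the sum, the share was 21.1 ± 3.10% in GLE tumours and 17.1 ± 1.103% in model tumours, and the groups overlapped (exact permutation p = 0.2, n = 3 each). Over all arrays the 5p arm took 8.02% of the signal, behind miR-6366 with 36.9% and miR-3963 with 9.32%, and ahead of miR-8110 with 2.42%. By mean share alone, the order of miR-21a-5p and miR-3963 differed between the groups. In GLE tumours miR-3963 held 8.99%, within the SD of the 9.05 ± 1.22% of the 5p arm. In model tumours it held 9.64%, above the 6.99% of the 5p arm. By mean level miR-3963 was above the 5p arm in both groups. The first 3 by share together held 54.2% of the signal of 349 miRNAs.

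The neighbours of the 5p arm in level were as follows. Just above it, miR-3963 averaged 6.29 ± 0.24 in GLE tumours and 6.34 ± 0.37 in model tumours (log2 mean and SD, n = 3 each), so its signal and that of the 5p arm lay within their spread of each other in GLE tumours but not in model tumours. Next below, miR-8110 averaged 4.52 ± 1.30 in GLE tumours, where its SD range overlapped that of the 5p arm, and 4.11 ± 0.29 in model tumours. Further down, miR-494-3p averaged 3.73 ± 0.55 in GLE tumours and 3.40 ± 0.23 in model tumours. The brightest miRNA, miR-6366, averaged 8.31 ± 0.089 in GLE tumours and 8.37 ± 0.20 in model tumours. The 3p arm ranked 245, 241 and 219 in GLE tumours and 242, 240 and 207 in model tumours, among 388. It held 0.0150%, 0.0144% and 0.0202% of the summed signal in GLE tumours and 0.0159%, 0.0161% and 0.0191% in model tumours. GLE tumours had a mean share of 0.0165 ± 0.00321%, and model tumours one of 0.0170 ± 0.00180% (SD, n = 3 each; exact permutation p = 0.8, and 0.8 after adjustment over 3 tests).

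**Figure D3:**
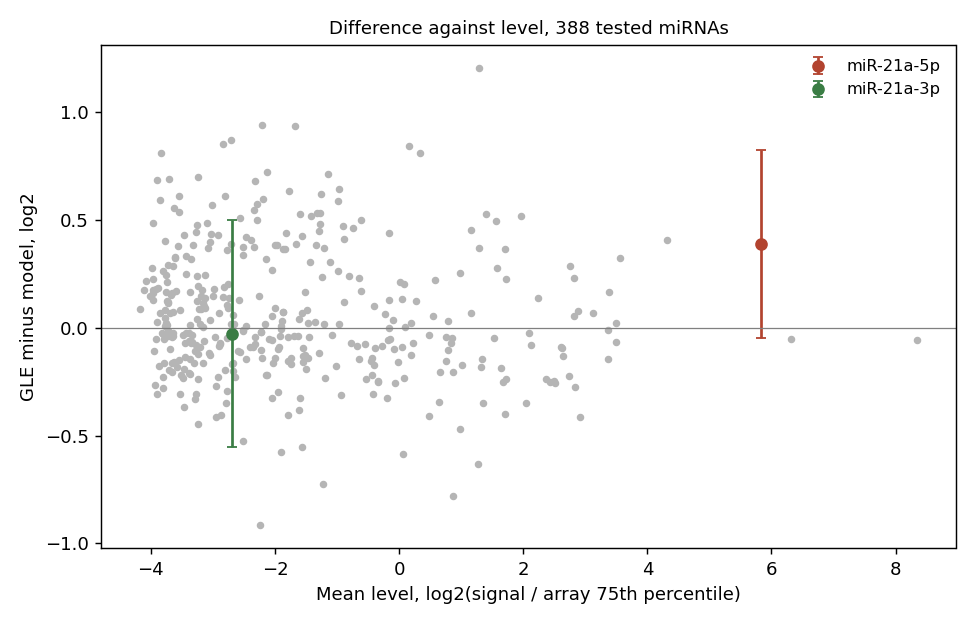
GLE minus model difference (log2) of each of the 388 tested miRNAs (grey points) against its mean level over 6 arrays (log2 of signal over the array's 75th percentile), with 95% intervals from limma for miR-21a-5p (red) and miR-21a-3p (green). The difference of miR-21a-5p was 0.39 with an interval from −0.048 to 0.82, at rank 3 by level, and that of miR-21a-3p was −0.028 at rank 228.

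Among all tested miRNAs, 198 of 388 (51.0%) had a positive difference, with a median of 0.0078 and a middle 95% from −0.43 to 0.70 (log2). The difference of the 5p arm had rank 60 counted down from the most positive one, and its p rank 18 from the smallest. The typical half-width of a 95% interval was 0.54 (log2), which is wider than the difference of the 5p arm. Spread was larger among GLE tumours, with a median SD of 0.33 against 0.17 among model tumours (log2).

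The ratio between the arms uses signal of the same array, so division of an array by a common factor leaves it unchanged. Quantile normalisation is no such division and was not run for the ratio. Under it the 5p arm differed by 0.13 and the 3p arm by −0.088 (GLE minus model, log2). The 5p signal was 463, 424 and 386 times the 3p signal in GLE tumours and 361, 313 and 282 times in model tumours. On the log2 scale the ratio was 8.85, 8.73 and 8.59 in GLE tumours and 8.50, 8.29 and 8.14 in model tumours. The lowest GLE ratio was above the highest model ratio. Its mean was 8.72 ± 0.13 in GLE tumours and 8.31 ± 0.18 in model tumours (log2 mean and SD, n = 3 each), a difference of 0.42 (exact permutation p = 0.1, two-sided, the smallest possible; 0.15 after adjustment over 3 tests). The height of the ratio moved with the processing more than with the group. It averaged 7.33 in GLE tumours and 6.92 in model tumours with normexp background, and 9.55 in GLE tumours and 9.16 in model tumours with the brightest probe of each arm. From the authors' deposited table it was 10.29 in GLE tumours and 9.77 in model tumours (log2). A limma fit over the 37 hairpins with both arms tested gave 0.42 ± 0.15 (log2, SE) with a 95% interval from 0.049 to 0.78 and an unadjusted p of 0.0317, the smallest of the 37. After Benjamini-Hochberg adjustment over the 37 the limma p was 0.501, and 0 hairpins were called. This fit was chosen after the data were seen.

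Among those 37 hairpins miR-21a had the highest 5p over 3p ratio, with a mean of 8.52 over the 6 arrays (log2), followed by let-7b with 7.57 and miR-106b with 5.95. Its size was above that of miR-29c, whose 3p arm was the brighter one at −5.18. The 3p arms of let-7b and miR-106b were set to the lower limit of −4.26 (log2) on some arrays, so their ratios are lower bounds. Hairpins with an arm that failed the detection filter are not among the 37. The median size of the ratio was 2.24, and the 5p arm was the brighter one in 25 of 37. Groups did not overlap for 4 of the 37 ratios (10.8%), and the GLE minus model difference of miR-21a had rank 7 by size, against a median size of 0.16 (log2).

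**Figure D4:**
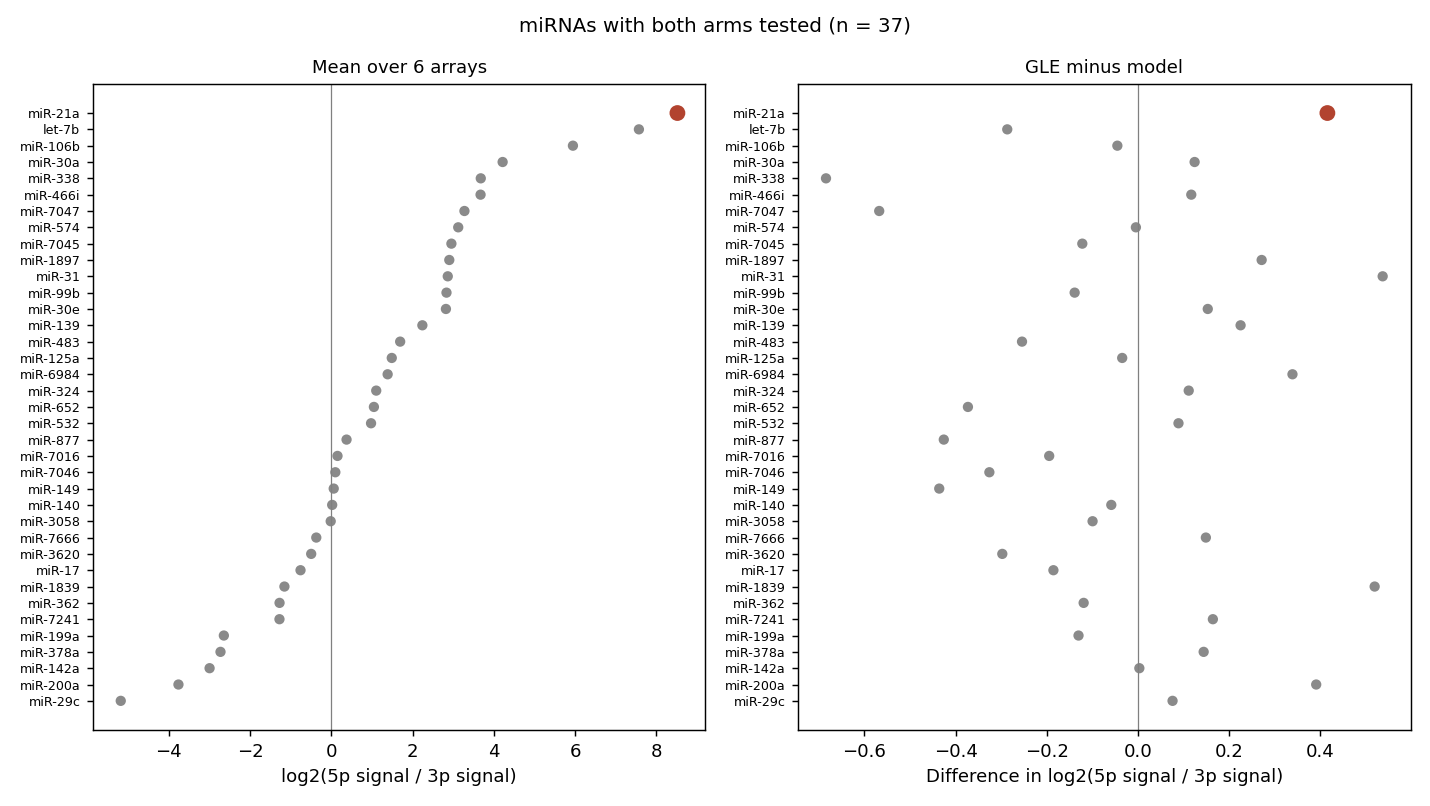
Log2 ratio of 5p over 3p signal, as the mean over 6 arrays (left panel), and GLE minus model difference in that ratio (right panel), for the 37 hairpins with both arms tested, in the order of the ratio. miR-21a (red) has the highest ratio, 8.52, and a difference of 0.42.

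The arms of one hairpin are cut from the same precursor, so their levels were set against each other. Across the 6 arrays their levels had a Pearson correlation of 0.46 (exact permutation p = 0.329 over 720 pairings) and a Spearman correlation of 0.31 (exact permutation p = 0.564), 1 relation being tested. Without GLE replicates 1 and 3, the arrays farthest from the median 5p level, Pearson's r was 0.24. Deviations from the group means correlated at 0.84, as replicate 3 of either group was high in both arms. All 6 points share the scaling of their array.

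The miRNAs whose levels over the 6 arrays were most like that of miR-21a-5p were miR-532-5p, miR-185-5p, miR-10b-5p, miR-146a-5p and miR-15a-5p, each with a Pearson r of 0.99, against a median of 0.17 over the other tested miRNAs; these are descriptions over 6 arrays that share groups and scaling. Their GLE minus model differences were 0.41 ± 0.20, 0.42 ± 0.21, 0.72 ± 0.31, 0.63 ± 0.24 and 0.36 ± 0.18 in that order (log2, SE). The 3p arm stood at place 140 by this measure. Most like the 3p arm were miR-341-3p with an r of 0.96, miR-3472 with 0.92, miR-6973b-5p and miR-3058-3p with 0.90 each, and miR-7042-5p with 0.88, against a median of 0.23.

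Other miRNAs induced through STAT3, NF-kB or AP-1 were described beside miR-21a, for which STAT3 and AP-1 are named above. Of 8 such miRNAs, 8 were tested, 5 had a positive difference and 0 passed the test. Their median was 0.066 against 0.0078 over all miRNAs (log2). The inflammatory miR-155-5p differed by 0.71 ± 0.35 and miR-146a-5p, a feedback inhibitor of NF-kB signalling, by 0.63 ± 0.24 (log2, SE). miR-222-3p, which represses cell cycle inhibitors, differed by 0.31 ± 0.17. Both miR-146a-5p and miR-222-3p were higher in all GLE tumours than in all model tumours, as were 4.64% of all tested miRNAs. The others were near 0 or negative: miR-132-3p at 0.091 ± 0.18, miR-221-3p at 0.040 ± 0.16, miR-181b-5p at −0.15 ± 0.16, miR-31-5p at −0.19 ± 0.21 and miR-125b-5p at −0.22 ± 0.18.

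Of 11 miRNAs described as raised in hepatocellular carcinoma, 8 were tested, and miR-224-5p, miR-182-5p and miR-183-5p were detected on 0 arrays. The list shares miR-155-5p, miR-221-3p and miR-222-3p with the induced miRNAs above. Positive differences were found for 3 of 8, those same 3, and the median was −0.19 (log2), with 0 passing the test. For miR-210-3p, which hypoxia induces, the difference was −0.25 ± 0.20. Those of miR-106b-5p, miR-93-5p and miR-25-3p, which share a cluster, were −0.35 ± 0.35, −0.35 ± 0.31 and −0.20 ± 0.30 (log2, SE). miR-18a-5p, a member of the miR-17-92 cluster, differed by −0.18 ± 0.27.

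Of 6 miRNAs whose processing SMAD proteins are known to promote, as they do that of miR-21, 2 were tested. These were the arms of miR-199a, with differences of 0.81 ± 0.44 for 3p and 0.68 ± 0.44 for 5p (log2, SE), and 0 passed. miR-215-5p and miR-105 were detected on 0 arrays, miR-421-3p on 2 arrays, and miR-600 had no probe.

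**Figure D5:**
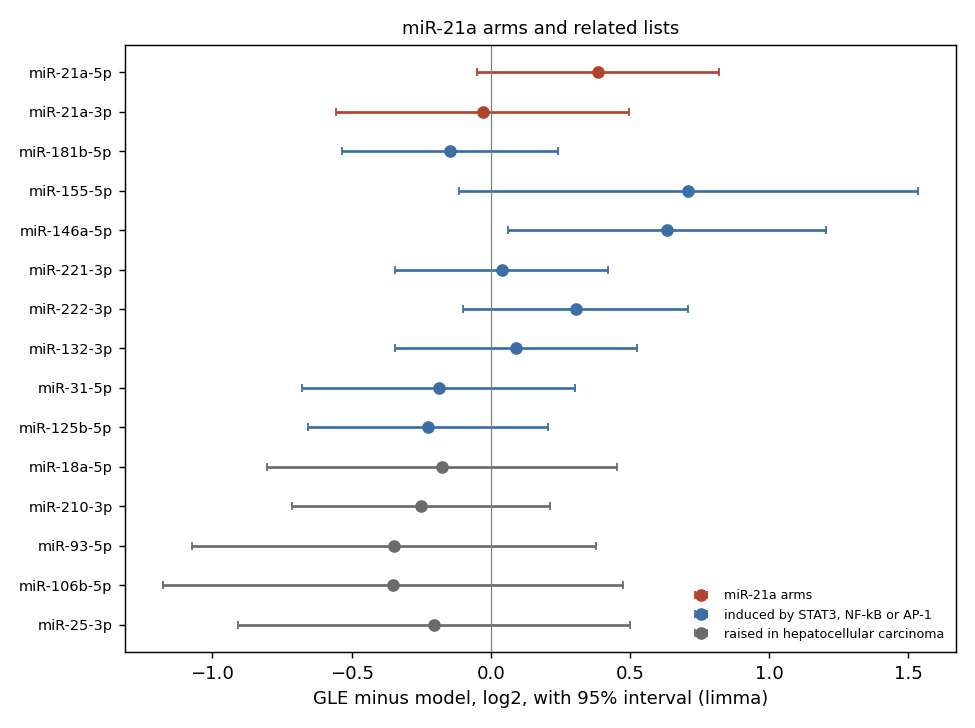
GLE minus model difference (log2) with 95% interval from limma for the miR-21a arms (red), the miRNAs induced by STAT3, NF-kB or AP-1 (blue) and the other tested miRNAs raised in hepatocellular carcinoma (grey). Of these, the interval of miR-146a-5p alone lies clear of 0, and none passed after adjustment.

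The 5p arm is present in several cell types of a tumour, and in bulk samples fewer cells of a type and less RNA per cell cannot be told apart. Of 8 immune miRNAs, 8 had a positive difference with a median of 0.77 (log2) and 0 called; their summed level was 5.84 to 16.5 in GLE tumours, with a median of 11.2, and 4.82 to 7.52 in model tumours, with a median of 5.22. Fibroblast and smooth muscle miRNAs had 5 of 6 positive, with a median difference of 0.64 (log2). Their summed level was 1.62 to 5.22 in GLE tumours (median 2.94) and 1.42 to 2.26 in model tumours (median 1.74). Endothelial miR-126a-3p, the 1 tested of 2, differed by 0.49 ± 0.19 (log2, SE). Its summed level was 2.87 to 3.9997 in GLE tumours (median 3.68) and 2.30 to 2.71 in model tumours (median 2.44). Of 7 hepatocyte miRNAs 4 were tested and 3 were positive. Their summed level was 0.899 to 2.89 in GLE tumours (median 1.13) and 0.958 to 1.47 in model tumours (median 1.12). The level of miR-192-5p was 0.26 in GLE replicate 2, and −3.01 and −3.46 in GLE replicates 1 and 3 (log2). Muscle miRNAs had 3 of 4 positive, but the median of their summed level was lower in GLE tumours. The sum was 1.30 to 4.45 in GLE tumours (median 1.32) and 0.807 to 2.00 in model tumours (median 1.77). The level of miR-1a-3p was 0.33 in GLE replicate 1, and −1.57 and −1.60 in GLE replicates 2 and 3 (log2). Erythrocyte miRNAs, 2 tested of 5, had 0 positive. Their summed level was 2.90 to 10.67 in GLE tumours (median 5.34) and 4.18 to 12.2 in model tumours (median 5.57). For epithelium and skin 3 of 6 were tested and 0 were positive, and miR-200c-3p and miR-141-3p were detected on 0 arrays. The summed level was 1.59 to 11.9 in GLE tumours (median 3.86) and 4.42 to 9.40 in model tumours (median 7.14). The immune list shares miR-155-5p and miR-146a-5p with the induced miRNAs above, and the fibroblast list holds both miR-199a arms. Over all tested miRNAs, 51.0% had a positive difference. The part of the listed cell types in the level of miR-21a-5p was not tested.

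The authors' deposited table, whose scale of log2 follows from its values and whose normalisation and centring are not stated, held 13.43, 13.43 and 13.93 for miR-21a-5p in GLE tumours and 13.24, 13.08 and 13.24 in model tumours. For miR-21a-3p the authors' deposited table held 3.11, 3.28 and 3.54 in GLE tumours and 3.21, 3.33 and 3.71 in model tumours. In that table the 5p value was identical in GLE replicates 1 and 2 (13.426432), and in model replicates 1 and 3 (13.238369). The cause of these equal values was not tested. As in the scanner files with the main processing, the 5p groups were separate and the 3p groups overlapped. Under quantile normalisation of the scanner files, the 5p groups overlapped.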

How the data were processed

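Agilent one-colour miRNA arrays of 3 GLE and 3 model tumours were read with Feature Extraction 10.7.1.1 per the file headers and the submitters' processing notes. The authors deposited scanner files whose background-subtracted spot intensity is linear and not scaled between arrays, and a table whose log2 values are of unstated normalisation; its column medians were −3.20, −3.32 and −3.27 in GLE tumours and −3.32, −3.17 and −3.13 in model tumours. Probe positions follow mm9 per the file headers and were not set against GRCm38.p6.

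Of 56430 spots that were not controls, outlier-flagged spots (1401 to 1883 per array) were dropped and the rest averaged per probe. Arrays were divided by their 75th percentile, taken over 636 probes that every array detected (203 to 364 units), floored at −4.26 (log2) and averaged per miRNA over detected probes, a probe being detected when over a share of 0.5 of its spots was well above background. Between 378 and 458 miRNAs were detected per array. Precision is limited by 3 arrays per group.

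limma 3.58.1 in R 4.3.3 (lmFit, eBayes; 4 residual and 3.05 prior degrees of freedom; Benjamini-Hochberg, threshold 0.05) compared the groups and was tested on simulated data. Single values were compared by exact permutation over 20 relabelings. Named miRNAs are both arms, the 5 most alike to each, their neighbours in level and the members of the lists. Members, lists and tests were chosen with earlier results of these data known. Alternatives covered scaling, background, outliers, spots, probes, filter, moderation, the deposited table, the replicate block and single arrays left out. Each array is a separate mouse per the labels.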

Additional observations from a re-analysis of the deposited data

How the results depend on the processing

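The GLE minus model difference of miR-21a-5p kept its sign in all 19 alternatives. It ran from 0.13 under quantile normalisation to 0.46 without scaling, and from 0.29 to 0.51 with 1 array left out (log2). Its limma adjusted p after Benjamini-Hochberg adjustment was 0.433 to 0.999 on all arrays. Under quantile normalisation and without scaling the groups overlapped; the first gives equal ranks equal values by construction. Without GLE replicate 2 the difference was 0.51 (limma adjusted p = 0.126), and 2 miRNAs passed the threshold (107 at an unadjusted p under 0.05), against 0 in the other alternatives, a range of 0 to 2 with 1 array left out; the cause was not tested. The difference of miR-21a-3p reversed to 0.047 without scaling and 0.025 with the brightest probe only, and ran from −0.19 to 0.12 with 1 array left out (0.012 without GLE replicate 1, 0.092 without GLE replicate 2 and 0.12 without model replicate 3). Its share difference reversed to 0.000102 percentage points with outlier spots kept, and ran from −0.00234 to 0.000583 with 1 array left out; the cause was not tested. The 5p share difference stayed positive in 10 of 10 alternatives (1.92 to 4.001 points, and 1.47 to 2.69 with 1 array left out), as did the arm ratio in 13 of 13 (0.38 to 0.52, and 0.33 to 0.51 with 1 array left out; log2). Quantile normalisation was not among the alternatives for the share or the arm ratio. Positive differences were 38.7% of the 388 miRNAs with the percentile over all probes, 64.95% without scaling, 42.0% under quantile normalisation and 43.0% with median scaling, against 51.0%.

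Equal replicate numbers correlated at −0.62, −0.18 and 0.37 in their deviations from the group means, and unequal numbers from −0.50 to 0.66. With 3 arrays a group these values cannot decide whether the numbers pair the mice. The numbers also mark the slide column. With the replicate block the difference was 0.39 for miR-21a-5p (limma adjusted p = 0.973) and −0.028 for miR-21a-3p (limma adjusted p = 0.980), 0 miRNAs were called and 17 had an unadjusted p under 0.05; the paired arm ratio difference was 0.42 (exact sign-flip permutation p = 0.25, the smallest possible). A slide or scan block was not run because all arrays share both. With 3 tumours a group, differences under about 0.54 (log2) were mostly within the interval.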
